A study of Mus musculus with 16 samples.

Results

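Leukocyte adhesion was followed in 10 genes across all conditions of the experiment: the selectin Selp and its ligand Selplg, the immunoglobulin superfamily ligands Icam1 and Vcam1, the beta2 integrin chains Itgal, Itgam, Itgax and Itgb2, and the alpha chains Itga4 and Itga5, which pair with beta1 integrin. They were chosen by name, with their levels in these samples already known, and Selp was singled out as one of the genes that fell most with ruxolitinib in tumor medium. These are 10 of the 55487 genes in the table, and all 10 were among the 12372 that were tested, Selp only because it exceeded 1 CPM in the 3 samples of tumor medium alone.

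The samples were bone marrow-derived macrophages (BMDMs), macrophages grown in culture from the bone marrow of wild-type (WT) Balb/c mice aged 8 weeks. DMEM is the plain medium, and conditioned medium (CM) holds the soluble factors released by 4T1 cells, a mouse mammary tumor line. JAK1 and JAK2, kinases that activate STAT transcription factors, are the targets of ruxolitinib (Rux), and IKK-16 blocks the IKK kinases upstream of NF-κB. There were 16 samples in 6 groups: DMEM alone (2 samples), ruxolitinib in DMEM (DMEM + Rux, 3 samples), CM (3 samples), CM with ruxolitinib at 0.5 μM (CM + Rux, 3 samples), the same with IKK-16 added at 0.8 μM (CM + Rux + IKK-16, 3 samples), and CM + Rux labelled 2 h (2 samples). By the paper's methods, BMDMs were serum starved for 2 h before CM was added, and ruxolitinib was present from that step in the CM + Rux samples. The methods do not state this step for the samples without CM. The CM + Rux group carries a label of 4 h, the treatment time that the methods give for RNA. What the 2 h of the other label refers to is not stated, and neither are the dose and time of ruxolitinib in DMEM. The labels do not say whether replicates came from separate animals or cultures, so p-values measure the spread between these samples, which may be technical.

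Leukocytes leave the blood in steps. Selectins and their glycosylated ligands slow the cell along the vessel wall, chemokine signals then switch integrins to their binding form, and integrins hold firmly to ICAM-1 and VCAM-1 and later to the matrix. P-selectin, encoded by Selp, is best known from the granules of platelets and endothelial cells, and its main ligand PSGL-1, encoded by Selplg, sits on leukocytes. Itgb2 encodes the beta2 chain (CD18), which pairs with Itgal to form LFA-1, with Itgam to form Mac-1 and with Itgax to form CD11c/CD18. LFA-1 and Mac-1 bind ICAM-1, Itga4 forms the VCAM-1 receptor VLA-4, and Itga5 forms the main fibronectin receptor. Macrophages carry the integrins and can be induced to make ICAM-1 and VCAM-1 themselves.

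Levels are given as CPM, in which each count is divided by the total of its library, adjusted between samples by relative log expression (RLE). Between 18449388 and 46215853 fragments per sample were counted, and 3 counts in a library came to 0.175 CPM or less. Replicates differed by more than counting noise (chi-square of 13.2 to 50.3 for each degree of freedom). All 8 macrophage markers were above 1 CPM in every group, with a summed level of 40071 to 57320.5 CPM per sample. Summed levels were far lower for markers of endothelial cells (136 to 317 CPM, most of it Vwf), fibroblasts (5.84 to 21.0 CPM), dendritic cells (1.01 to 17.1 CPM), neutrophils (2.21 to 8.22 CPM), platelets and megakaryocytes (2.74 to 7.48 CPM), T and NK cells (0.707 to 3.74 CPM), epithelial and tumor cells (0 to 1.45 CPM) and B cells (0.223 to 1.35 CPM). In bulk RNA, fewer cells of a type and less RNA per cell cannot be told apart.

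The promoters of Selp and Icam1 are shown because Selp was picked for its fall with ruxolitinib and Icam1 was among the genes that fell with IKK-16, and because STAT proteins, NF-κB and AP-1 bind short DNA motifs that can be looked for in them. Each sequence runs 5′ to 3′ on the + strand from 250 bases before to 50 bases into the gene in the RefSeq annotation of GRCm38.p6, at chr1:164115014-164115313 for Selp and at chr9:21015690-21015989 for Icam1. Capitals mark the matches to the motifs searched.
Selp: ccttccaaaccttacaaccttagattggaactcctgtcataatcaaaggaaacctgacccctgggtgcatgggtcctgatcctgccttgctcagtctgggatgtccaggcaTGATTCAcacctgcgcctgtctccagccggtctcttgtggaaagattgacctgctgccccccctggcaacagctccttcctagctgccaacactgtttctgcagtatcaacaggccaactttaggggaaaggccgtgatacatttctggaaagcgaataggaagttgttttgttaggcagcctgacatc
Icam1: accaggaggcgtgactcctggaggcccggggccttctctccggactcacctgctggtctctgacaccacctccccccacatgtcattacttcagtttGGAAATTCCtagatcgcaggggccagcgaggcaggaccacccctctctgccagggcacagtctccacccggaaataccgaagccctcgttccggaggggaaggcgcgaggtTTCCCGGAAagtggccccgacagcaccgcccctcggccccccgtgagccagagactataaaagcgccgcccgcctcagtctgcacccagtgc
The motifs searched, on both strands, were these: the STAT site TTCNNNGAA, the NF-κB core GGANNTTCC, the interferon-stimulated element (GAAA, any 2 bases, GAAA) and the AP-1 site TGANTCA. The Icam1 promoter held TTCCCGGAA, which matches the STAT motif, 42 bases before the start, and GGAAATTCC, which matches the NF-κB core, 153 bases before it. The Selp promoter held 1 match, TGATTCA for AP-1, 139 bases before the start. Promoter sequences were found for 6 of the 10 genes. Itgax held 1 AP-1 match, and Itgam, Itga4 and Itga5 held none of the motifs. Of 32851 promoters of the same length, 8.3% held the STAT motif, 4.26% the NF-κB core, 3.44% the interferon-stimulated element and 7.81% the AP-1 site. A match describes letters in this window and is not a measured binding site.

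P-selectin RNA was low and was highest in CM. Selp (ENSMUSG00000026580, GRCm38 chr1:164115264-164150026, + strand) had 3.28, 3.34 and 3.50 CPM in the 3 CM samples, from 59, 112 and 86 counts. In CM + Rux it had 0.216, 0.267 and 0.305 CPM, and in CM + Rux 2 h 0.332 and 0.175 CPM. A single count was found in each CM + Rux + IKK-16 sample (0.0258 to 0.0305 CPM) and in each DMEM sample (0.0295 and 0.0407 CPM), and no count in any DMEM + Rux sample. The CM samples lay above all others, the CM + Rux and 2 h samples overlapped, and the remaining groups were at or under 3 counts per library.

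The lower level in CM + Rux than in CM is the value for which Selp was picked, so it is given without a test. By summed counts, Selp was 13.2-fold lower (95% counting interval 8.76 to 20.8), and its fitted log2 fold change of -3.69 was the lowest but 3 of the 12372 genes, at rank 4. Intervals from counts cover counting error only. CM against DMEM, with 257 against 2 counts, gave a ratio of 98.7 (27.0 to 819). With IKK-16 added to CM + Rux, 3 against 25 counts gave a ratio of 0.111 (0.0215 to 0.364). These comparisons share samples with the one that picked Selp, and no test is given for it there either. CM + Rux was at least 1.90-fold above DMEM + Rux, counting DMEM + Rux as 3 counts in its shallowest library.

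The comparison of CM + Rux 2 h with DMEM + Rux uses none of the samples that picked Selp. Selp was at least 1.83-fold higher there, from 12 and 3 counts against none in 3 samples. No test is given, because Selp passed the filter on low counts only through the CM samples that also picked it. The 2 h samples gave 1.10 times the level of CM + Rux by summed counts (0.541 to 2.18).

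Markers of the cells that Selp is best known from were mostly low or absent, apart from the endothelial marker Vwf. Some were highest in CM, as Selp was, and others were lowest there. Of the 10 platelet and megakaryocyte markers, Gp1bb and Gp6 had no count in any group, and the summed level was 5.90 to 7.16 CPM in CM, 4.22 to 6.89 CPM in CM + Rux and 5.55 to 7.48 CPM in CM + Rux + IKK-16. Ppbp, a platelet chemokine, averaged 3.95 CPM in CM, 2.44 CPM in CM + Rux, 1.84 CPM in CM + Rux + IKK-16 and 0.310 CPM in DMEM. Itga2b, an integrin chain of platelets, averaged 1.25 CPM in CM, 1.03 CPM in CM + Rux, 1.17 CPM in CM + Rux + IKK-16 and 0.657 CPM in DMEM. Treml1 and Tubb1, of the same list, were lowest in CM. In the same order of groups, Treml1 averaged 0.876, 1.08, 2.17 and 2.57 CPM, and Tubb1 0.567, 0.633, 1.02 and 0.721 CPM. Of the 10 endothelial markers, Cldn5 had no count in any group and Cdh5 averaged at most 0.514 CPM, whereas others were above the level of Selp. Vwf averaged 147 CPM in CM, 143 CPM in CM + Rux, 182 CPM in CM + Rux + IKK-16 and 174 CPM in DMEM. In the same order, Tie1 averaged 6.20, 5.62, 5.41 and 6.95 CPM. Kdr, lowest in CM, averaged 4.89, 5.45, 14.9 and 18.4 CPM. The summed level was 136 to 203 CPM in CM and 137 to 187 CPM in CM + Rux. The part of such cells in the level of Selp was not tested.

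Selplg, the P-selectin ligand (ENSMUSG00000048163, chr5:113818536-113832644, - strand), was abundant in every group and went the other way with CM. It had 106 and 143 CPM in DMEM, 73.6, 99.1 and 84.2 CPM in CM, and 70.8, 92.3 and 82.0 CPM in CM + Rux, so that CM and CM + Rux were alike in range and both lay below DMEM. It fell in CM against DMEM by 0.54 on the log2 scale (SE 0.16, adjusted p = 0.0085, edgeR quasi-likelihood test, Benjamini-Hochberg over all genes tested), and this call rests on single samples: without CM replicate 1 the log2 fold change was -0.44, and without DMEM replicate 2 it was -0.31 with an adjusted p of 0.17. With IKK-16 it had 94.8, 117 and 103 CPM, and in the 2 h samples 134 and 126 CPM. The 2 h samples were above CM + Rux by 0.67 on the log2 scale (SE 0.16, adjusted p = 0.0042), while the difference with IKK-16 (0.36, 95% interval 0.06 to 0.66, adjusted p = 0.11) did not pass.

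**Figure D1:**
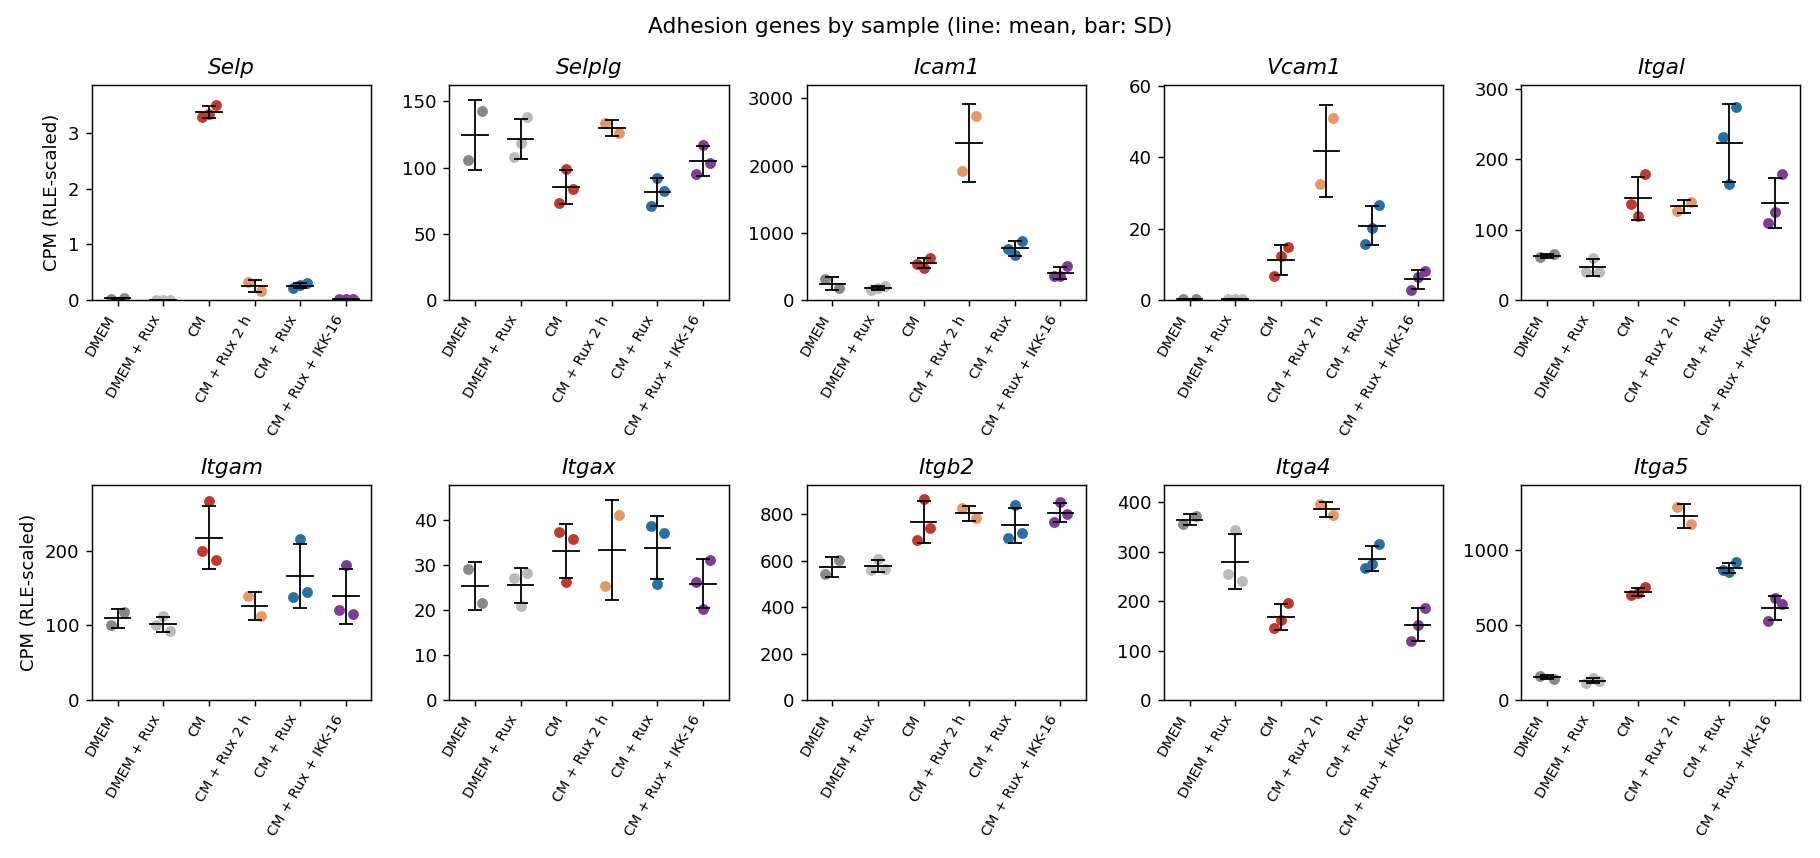
CPM (RLE-scaled) of the 10 adhesion genes in each sample of the 6 groups, with 1 point per sample, the mean as a line and the SD as a bar, and each panel on its own axis from 0. Selp is highest in the CM samples (3.28 to 3.50 CPM), while Icam1 and Vcam1 are highest in the 2 h samples (1922 and 2739 CPM, 32.6 and 50.9 CPM).

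The integrin ligands Icam1 and Vcam1 rose with CM, and both had higher means with ruxolitinib in CM. Icam1 (ENSMUSG00000037405, chr9:21015985-21028817, + strand), which encodes the ligand of LFA-1 and Mac-1, had 311 and 178 CPM in DMEM and 533, 483 and 630 CPM in CM. In CM + Rux it had 767, 665 and 876 CPM, with IKK-16 355, 362 and 515 CPM, and in the 2 h samples 1922 and 2739 CPM. Ordered by mean, the groups ran from DMEM + Rux (179 CPM) over DMEM, CM + Rux + IKK-16, CM and CM + Rux to CM + Rux 2 h (2330.2 CPM). In that order DMEM + Rux overlapped with DMEM, and CM + Rux + IKK-16 with CM, and the other neighbours did not overlap.

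Vcam1 (ENSMUSG00000027962, chr3:116109949-116129688, - strand), the VLA-4 ligand, was near its floor without CM. It had 0.295 and 0.367 CPM in DMEM and 0.222 to 0.418 CPM in DMEM + Rux, against 6.79, 12.4 and 14.8 CPM in CM. Its level was 15.9, 20.2 and 26.6 CPM in CM + Rux, 2.82, 6.56 and 8.09 CPM with IKK-16, and 32.6 and 50.9 CPM in the 2 h samples. The groups took the same order as for Icam1, and the same 2 pairs of neighbours overlapped.

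Across the 16 samples, Vcam1 correlated with Icam1 at r = 0.921 and with Itga5 at r = 0.971 (Pearson, log2 of CPM + 0.5). These samples share the 6 groups, so the correlations mostly describe group means and have no test.

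The beta2 integrin chains differed among themselves. Itgb2 (ENSMUSG00000000290, chr10:77530252-77565708, + strand) moved little, with 544 and 605 CPM in DMEM, 560 to 606 CPM in DMEM + Rux, and 690 to 867 CPM over all 11 samples with CM. Every sample with CM lay above every sample without it. Itgal (ENSMUSG00000030830, chr7:127296260-127335138, + strand), the alpha chain of LFA-1, had 61.1 and 65.4 CPM in DMEM and 39.5, 60.4 and 40.5 CPM in DMEM + Rux. It reached 137, 119 and 179 CPM in CM and 232, 165 and 274 CPM in CM + Rux, with 110, 126 and 179 CPM with IKK-16 and 127 and 140 CPM in the 2 h samples. All samples with CM lay above those without, and the groups with CM overlapped one another except that CM + Rux lay above the 2 h samples.

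Itgam (ENSMUSG00000030786, chr7:128062640-128118491, + strand), the alpha chain of Mac-1, and Itgax (ENSMUSG00000030789, chr7:128129547-128150657, + strand), that of CD11c/CD18, are neighbours on chromosome 7. Itgam had 101 and 119 CPM in DMEM, 200, 266 and 188 CPM in CM, 138, 216 and 144 CPM in CM + Rux, 120, 182 and 116 CPM with IKK-16, and 139 and 113 CPM in the 2 h samples. It was highest in CM, where it overlapped with CM + Rux. Itgax lay between 20.2 and 41.1 CPM in all 16 samples, with every group overlapping every other.

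**Figure D2:**
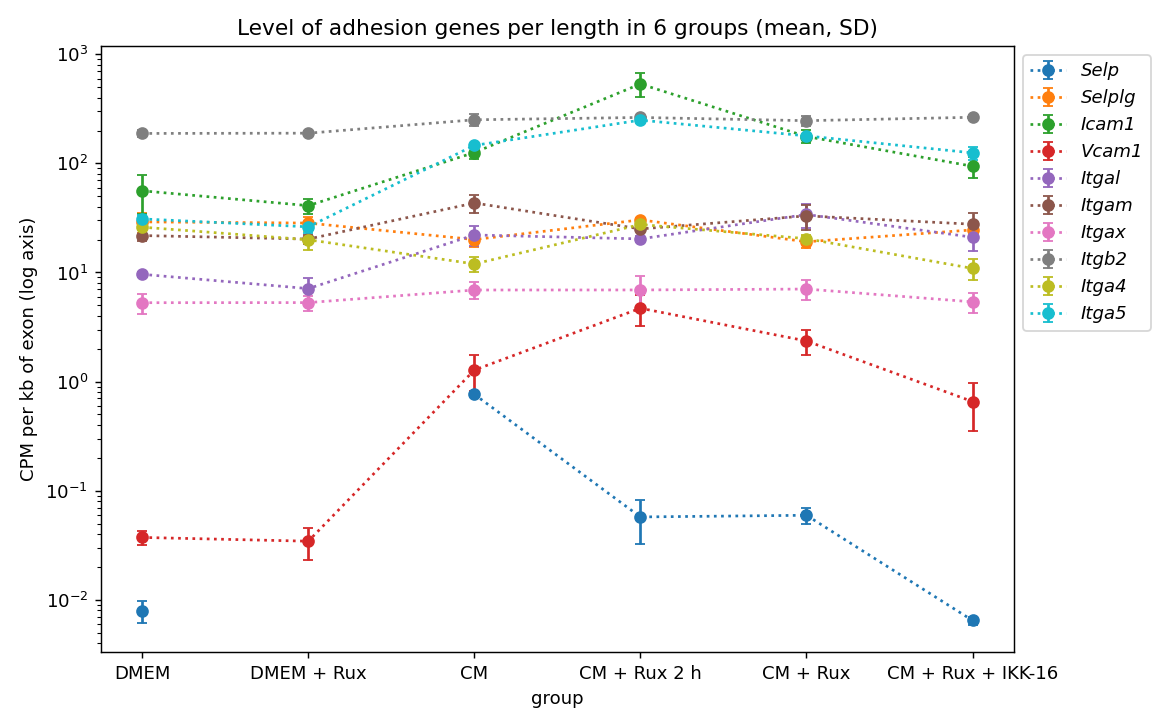
Level per length, as the mean CPM per kb of exon with SD on a log axis, of the 10 adhesion genes in the 6 groups, with dotted lines only to guide the eye. Itgb2 leads in 5 of the 6 groups, Icam1 leads in the 2 h group at 534 CPM per kb, and Selp, which is not drawn for DMEM + Rux because its level there is 0, is lowest throughout.

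Per kb of exon, which allows levels of different genes to be compared, Itgb2 had the highest mean level in 5 of 6 groups, at 188 ± 14.3 CPM per kb in DMEM (SD, n = 2) and 251 ± 29.8 CPM per kb in CM (SD, n = 3). Itga5 and Icam1 came next in CM with 146 ± 5.85 and 126 ± 17.2 CPM per kb, with overlapping samples. Only in the 2 h group was Itgb2 second, with 264 ± 10.4 CPM per kb beside 534 ± 132 CPM per kb for Icam1 (SD, n = 2). In CM, Vcam1 (1.28 ± 0.463 CPM per kb) and Selp (0.764 ± 0.0254 CPM per kb) were the lowest, as they were in every group.

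The alpha chains of beta1 integrins moved in opposite directions with CM. Itga5 (ENSMUSG00000000555, chr15:103344286-103366763, - strand), of the fibronectin receptor, had 163 and 143 CPM in DMEM, 699, 711 and 754 CPM in CM, and 869.5, 856 and 920 CPM in CM + Rux. It had 525, 682 and 641 CPM with IKK-16 and 1286 and 1173 CPM in the 2 h samples. Itga4 (ENSMUSG00000027009, chr2:79255426-79333123, + strand), of VLA-4, had 356 and 372 CPM in DMEM, 145, 162 and 196 CPM in CM, and 268, 274 and 315 CPM in CM + Rux. With IKK-16 it had 120, 151 and 186 CPM, which overlapped with CM, and in the 2 h samples 396 and 374 CPM, above the DMEM samples. The highest CM sample of Itga4 lay below the lowest sample of DMEM, of DMEM + Rux and of CM + Rux.

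The question of what tumor-derived factors change was addressed by CM against DMEM. A gene was called at an adjusted p under 0.05 and a log2 fold change beyond 0.5. Of the 10 genes, 6 were called higher and 2 lower, where 21.1% of all genes tested were called higher and 23.8% lower. The 6 include Selp by its values, without a test. The CM samples also enter the comparison that picked Selp, so this count draws in part on the values that picked it. Vcam1 rose by 5.11 on the log2 scale (SE 0.60, adjusted p = 6.0e-06) and Itga5 by 2.24 (SE 0.13, adjusted p = 1.2e-08). Icam1, Itgal and Itgam rose by 1.16, 1.20 and 0.99, with adjusted p-values of 0.0010, 0.0011 and 0.0020. Itga4 fell by 1.12 (SE 0.18, adjusted p = 8.9e-05), along with Selplg.

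Itgb2 passed the p threshold (adjusted p = 0.0041) at a log2 fold change of 0.42, under the threshold of size, and Itgax did not pass (0.38, 95% interval -0.16 to 0.92, adjusted p = 0.21). The median log2 fold change of the 10 genes was 1.08, beside 0.00059 over all genes. RLE scaling moved the median of all genes up by 0.32 in this comparison, relative to scaling by total counts, and by 0.31 in CM + Rux and 0.38 in CM + Rux 2 h against DMEM + Rux. The summed neutrophil markers were 7.53 to 8.18 CPM in CM and 2.21 to 3.30 CPM in DMEM, and nearly all of the sum was Mmp8 (7.38 and 2.63 CPM on average). Ly6g, Elane and Retnlg had no count in either group, and Cxcr2 had none in CM and 0.0794 CPM in DMEM. The part of such cells was not tested.

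**Figure D3:**
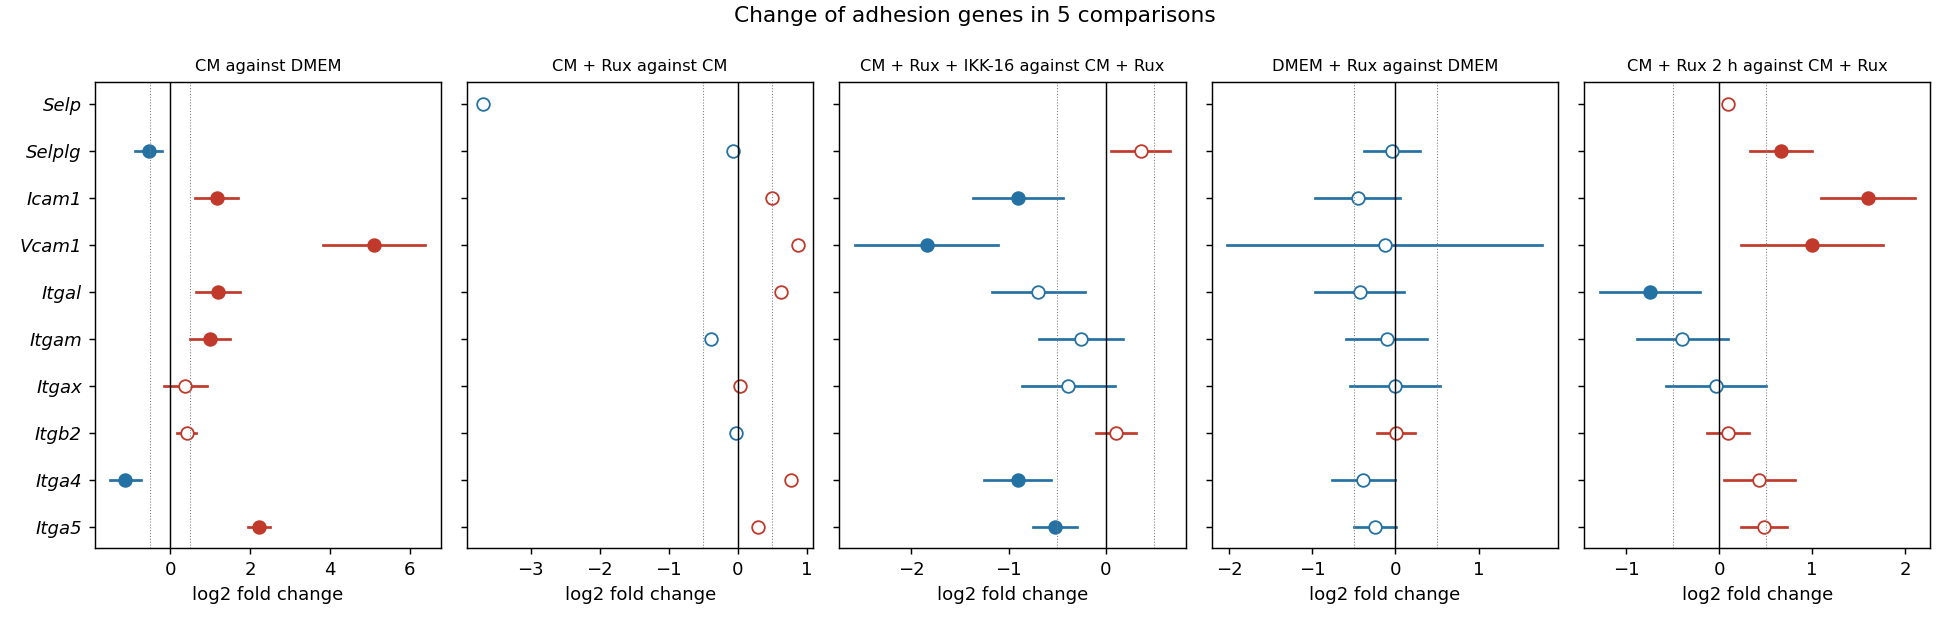
Log2 fold change of each adhesion gene in 5 comparisons, each panel on its own axis, with bars for 95% intervals, filled points for called genes, red for higher and blue for lower, and dotted lines at -0.5 and 0.5. CM + Rux against CM has open points and no bars because Selp was picked from it, and Selp is drawn only where both groups of the fold had more than 3 counts in some library. Vcam1 and Itga5 are to the right with CM (5.11 and 2.24), and Icam1, Vcam1, Itga4 and Itga5 are to the left with IKK-16 (-0.91, -1.84, -0.91 and -0.52).

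CM + Rux against CM asked what JAK inhibition changes in tumor-conditioned macrophages. As Selp was picked here, the values are a description. In all, 1 gene was called higher (Itga4) and 1 lower (Selp), where 1.2% of all genes were called higher and 2.11% lower. The count called higher was 3 with the replicate number as a block, and 0 without CM replicate 1, CM replicate 2 or CM + Rux replicate 3. The log2 fold change was 0.77 for Itga4, 0.87 for Vcam1, 0.62 for Itgal, 0.49 for Icam1 and 0.29 for Itga5. All CM + Rux samples lay above all CM samples for 4 genes (Icam1, Vcam1, Itga4 and Itga5) and below them for Selp, where 9.72% of all genes were higher and 9.51% lower without overlap. Selplg, Itgax and Itgb2 had log2 fold changes of -0.07, 0.03 and -0.03, and Itgam had -0.39 with overlapping samples.

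Adding IKK-16 to CM + Rux asked what depends on the IKK kinases while JAK is inhibited. Of the 10 genes, 5 were called lower, where 3.67% of all genes tested were called lower. The 5 include Selp by its values, without a test, so this count draws in part on samples that picked it. None was called higher, where 4.08% of all genes were. At an unadjusted p under 0.05, 1 gene was higher, and DESeq2 also called 0 higher. Vcam1 fell by 1.84 on the log2 scale (SE 0.34, adjusted p = 0.0035), Itga4 by 0.91 (SE 0.16, adjusted p = 0.0026), Icam1 by 0.91 (SE 0.22, adjusted p = 0.013) and Itga5 by 0.52 (SE 0.11, adjusted p = 0.0055). The median of the 10 genes was -0.60, beside -0.0017 over all genes. The CM + Rux samples also enter the comparison with CM, in which Icam1, Vcam1, Itga4 and Itga5 lay above CM. These falls are therefore not independent of that comparison.

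The calls for Icam1 and Itga5 rest on single samples. Icam1 had an adjusted p of 0.063 without CM + Rux + IKK-16 replicate 1. Itga5, near the threshold of size, had -0.41 without that sample, -0.49 without CM + Rux replicate 3, -0.50 with TMM scaling and -0.44 with scaling by total counts. Itgal, at -0.69 (SE 0.22, adjusted p = 0.052), was not called, but had an adjusted p of 0.013 at -0.70 with the replicate number as a block, 0.016 with DESeq2, 9.6e-04 with no filter on low counts, and 0.024 without either CM + Rux replicate 2 or CM + Rux + IKK-16 replicate 3.

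Itgam (-0.26, 95% interval -0.69 to 0.18), Itgax (-0.39, -0.86 to 0.09) and Itgb2 (0.10, -0.10 to 0.31) did not pass, with adjusted p-values of 0.44, 0.28 and 0.52. The interval of Itgb2 lay within 0.5 in either direction, whereas those of Itgam and Itgax did not.

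Ruxolitinib without CM asked what the inhibitor does to the macrophages alone. None of the 10 genes was called in DMEM + Rux against DMEM, where 0% of all genes were called higher and 0.978% lower by edgeR. At an unadjusted p under 0.05, 0 were higher and 2 lower, and DESeq2 called 0. The 2 were Selp, at or under 3 counts in both groups, and Itga4, with 255, 343 and 240 CPM in DMEM + Rux against 356 and 372 CPM in DMEM (log2 fold change -0.38, 95% interval -0.76 to -0.0012, adjusted p = 0.97). Itga4 was lower in every DMEM + Rux sample than in either DMEM sample, as were Itgal and Selp, where 8.95% of all genes tested were lower and 9.55% higher without overlap. The intervals of Selplg (-0.37 to 0.30) and Itgb2 (-0.22 to 0.24) lay within 0.5 in either direction, while that of Vcam1 (-2.02 to 1.77) spanned most of its range at this depth.

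With ruxolitinib in both arms, CM + Rux against DMEM + Rux gave 6 genes called higher and 1 lower, where 22.6% of all genes were called higher and 24.6% lower. The 6 include Selp by its values, without a test, so this count draws in part on samples that picked it. Vcam1 rose by 6.10 on the log2 scale (SE 0.50, adjusted p = 1.3e-07) and Itga5 by 2.77 (SE 0.11, adjusted p = 2.5e-10). Itgal and Icam1 rose by 2.25 and 2.10, with adjusted p-values of 1.3e-06 and 1.7e-06. The CM + Rux samples also enter the comparison with CM, so this comparison and that one are not independent.

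Smaller changes in this comparison depended on single samples. Itgam rose by 0.71 (adjusted p = 0.0067), but by 0.47 without CM + Rux replicate 2 and by 0.39 with scaling by total counts (adjusted p = 0.062). Selplg fell by 0.57 (adjusted p = 0.0026), by 0.48 without CM + Rux replicate 1 and by 0.47 without DMEM + Rux replicate 3. Itgax had 0.41 (adjusted p = 0.12), and 0.58 (adjusted p = 0.041) without CM + Rux replicate 2. Itga4 differed by 0.03 (95% interval -0.31 to 0.38), and with scaling by total counts by -0.28. The median of the 10 genes was 1.41, or 0.82 with Selp at its bound, beside 0.0046 over all genes.

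In the 2 h samples against CM + Rux, the genes called higher were the ligands Icam1, Vcam1 and Selplg. In all, 3 genes were called higher and 1 lower, where 12.6% of all genes tested were called higher and 10.8% lower. Here too the CM + Rux samples are those of the comparison with CM. Icam1 rose by 1.60 on the log2 scale (SE 0.24, adjusted p = 1.7e-04), and Selplg rose as given above. Vcam1 rose by 0.998 (SE 0.36, adjusted p = 0.040) and Itgal fell by 0.74 (SE 0.25, adjusted p = 0.032), and both calls were lost without single samples. For Vcam1 the adjusted p was 0.31 without 2 h replicate 3, 0.12 without CM + Rux replicate 1 and 0.081 without CM + Rux replicate 2. For Itgal it was 0.15 and 0.098 without 2 h replicate 2 and 3, and 0.070 and 0.11 without CM + Rux replicate 1 and 3.

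Itga5 was 0.48 higher (adjusted p = 0.0053), under the threshold of size, which it passed without 2 h replicate 3 (0.54) or CM + Rux replicate 3 (0.51). Itga4 had 0.43 (95% interval 0.05 to 0.81, adjusted p = 0.069). Itgam, Itgax and Itgb2 did not pass, with values of -0.40, -0.04 and 0.10. The summed dendritic cell markers ran from 1.51 to 2.27 CPM in DMEM over 4.45 to 7.03 CPM in CM and 7.28 to 11.2 CPM in CM + Rux to 13.7 to 17.1 CPM in the 2 h samples. From CM + Rux to 2 h, Zbtb46 went from 1.90 to 10.1 CPM and Siglech from 0.178 to 0.481 CPM, whereas Ccr7 went from 6.6 to 4.78 CPM, and Flt3, Clec9a and Xcr1 were also lower and under 0.1 CPM. Their part in the level of Icam1 was not tested.

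Against DMEM + Rux, the 2 h samples had 5 of the 10 genes called higher and 0 lower, where 18.6% of all genes tested were called higher and 21.4% lower by edgeR. DESeq2 called 0 lower, and 0 were lower at an unadjusted p under 0.05. The 5 include Selp by its values, without a test, since it passed the filter on low counts only through the CM samples. Vcam1 rose by 7.10 on the log2 scale (SE 0.51, adjusted p = 6.4e-08), Icam1 by 3.70 (SE 0.25, adjusted p = 3.1e-08), Itga5 by 3.25 (SE 0.12, adjusted p = 2.1e-10) and Itgal by 1.51 (SE 0.25, adjusted p = 1.4e-04). Itgb2 (0.48, adjusted p = 0.0015) and Itga4 (0.46, adjusted p = 0.038) were under the threshold of size. Itgb2 passed it without 2 h replicate 3 or DMEM + Rux replicate 2, and Itga4 passed it, at 0.64, without DMEM + Rux replicate 2.

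A wider list of 88 adhesion genes, 64 of them tested, was counted beside the 10. It holds other selectins, ligands and the enzymes that glycosylate them (14 tested), other immunoglobulin superfamily and junction molecules (11 tested), other integrin chains (13 tested), and genes of integrin activation and of the link to actin (26 tested). With CM, 27 of the 64 were called higher and 12 lower, beside 21.1% and 23.8% of all genes tested. The median of the 64 was 0.25 on the log2 scale. In the first group 6 were higher and 5 lower, in the second 7 and 2, in the third 7 and 2, and in the fourth 7 and 3.

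Among called genes of the wider list that averaged at least 1 CPM over both groups, those that changed most with CM were of different kinds. They were an endothelial and leukocyte junction molecule, separate integrin chains and a ligand-glycosylating enzyme. Sele, called higher at 0.731 CPM in CM and no count in DMEM, was under that level. Pecam1, which encodes CD31, rose by 4.62 on the log2 scale (adjusted p = 6.0e-07) to 9.80 ± 2.34 CPM (SD, n = 3). Itgb8, a partner of the integrin alpha V chain, rose by 4.26 (adjusted p = 8.9e-08). Gcnt1, which builds the core-2 O-glycans that selectin ligands carry, fell by 2.11 (adjusted p = 3.3e-07). Itga6, a laminin receptor chain, also fell by 2.11 (adjusted p = 3.9e-07). In CM + Rux against DMEM + Rux, 24 of the 64 were higher and 15 lower, beside 22.6% and 24.6% of all genes. Among called genes at that level, Itgb8 (5.31) and Pecam1 (4.45) again had the largest rises and Gcnt1 (-2.55) and Itga6 (-2.15) the largest falls.

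**Figure D4:**
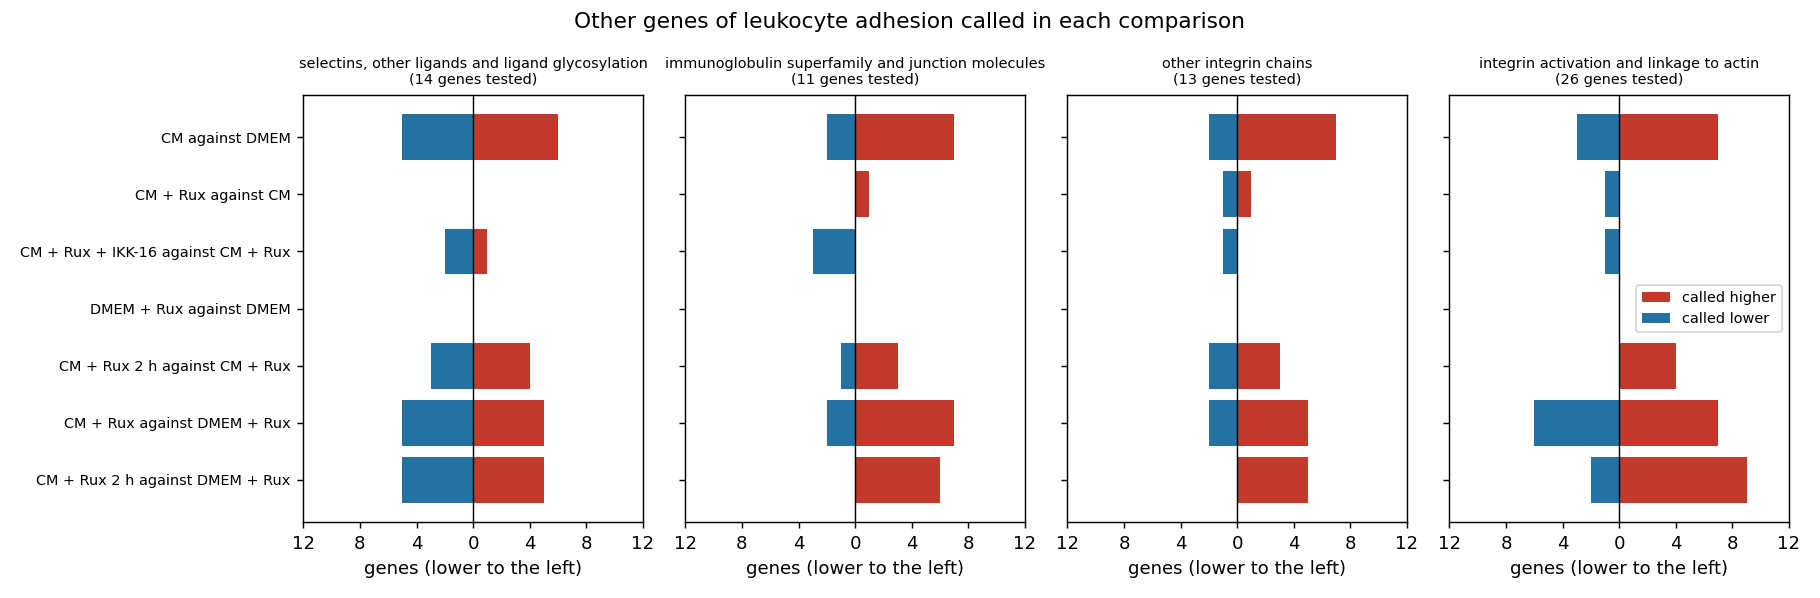
Number of genes of the wider adhesion list called higher (red, to the right) and lower (blue, to the left) in 7 comparisons, in 4 panels by function with the number tested in each title. With CM 27 of 64 were higher and 12 lower, and with ruxolitinib in DMEM 0 were called. The counts for the 2 h samples include Icam5 and Sele, which passed the filter on low counts only through those samples.

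With IKK-16 the wider list had 1 of 64 genes called higher and 7 lower, beside 4.08% and 3.67% of all genes tested. Itgb8 fell by 2.76 on the log2 scale (adjusted p = 1.4e-05), from 41.5 ± 6.99 to 6.11 ± 0.951 CPM (SD, n = 3), and St3gal3, a sialyltransferase, by 1.11 (adjusted p = 3.2e-04). Gcnt1 rose by 1.39 (adjusted p = 1.9e-04). The immunoglobulin superfamily and junction group had 3 of 11 lower, the integrin chains 1 of 13, the selectin and ligand group 2 of 14 with 1 higher, and the activation group 1 of 26.

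In CM + Rux against CM, as a description, 2 of the 64 genes of the wider list were higher and 2 lower, beside 1.2% and 2.11% of all genes, with log2 fold changes of 1.26 for Itgb3, 1.13 for Jam2, -1.19 for Itga1 and -0.60 for Zyx. In DMEM + Rux against DMEM, edgeR and DESeq2 each called 0 genes of the wider list, and at an unadjusted p under 0.05 in edgeR 1 was higher and 3 were lower.

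In the 2 h samples against CM + Rux, 14 of the 64 were higher and 6 lower, beside 12.6% and 10.8% of all genes tested. The largest differences upward were of Icam5, which averaged 3.83 CPM at 2 h and 0.584 CPM in CM + Rux, and of Sele, which encodes the endothelial selectin E-selectin and averaged 3.76 and 0.612 CPM. Both passed the filter on low counts only through the 2 h samples, so they are given without a test. They are counted in the 14 by their values, so that count draws in part on the filter. Pecam1 fell by 3.60 on the log2 scale (adjusted p = 2.3e-05) and Itgb8 by 2.64 (adjusted p = 1.0e-05), so that Pecam1 averaged 0.421 CPM at 2 h beside 5.70 CPM in CM + Rux. Against DMEM + Rux, 25 were higher and 7 lower, beside 18.6% and 21.4% of all genes. The 25 include Icam5 and Sele in the same way. Sele had no count in DMEM + Rux, where Icam5 averaged 0.332 CPM. Fut7, the fucosyltransferase of selectin ligands, fell by 1.61 (adjusted p = 5.5e-05) and Rassf5, an integrin activator also called RAPL, by 1.52 (adjusted p = 1.9e-06).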

How the data were processed

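RNA-sequencing counts of 16 samples were used, and the title of each sample gave its group and replicate number. The authors trimmed reads with Trimmomatic 0.33, aligned them to GRCm38 with HISAT2 2.1.0 and counted fragments with featureCounts 1.6.2, as given in the submitters' processing notes. The deposited table holds unscaled whole-number counts per Ensembl gene, of fragments with both ends mapped, reverse-stranded, at a mapping quality of at least 10 and assigned to a single place and gene. Symbols and positions come from Ensembl 100, which gave a symbol to 55141 of 55487 identifiers.

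Genes had to exceed 1 CPM in at least 2 samples, and counts were scaled by RLE, as in the paper's methods. The quasi-likelihood test of edgeR 4.0.16 (limma 3.58.1, R 4.3.3) was fitted to all 16 samples in 6 groups, with Benjamini-Hochberg adjustment over 12372 genes, and genes were called at an adjusted p under 0.05 and a log2 fold change beyond 0.5. CPM per kb uses exon length. Ratios of summed counts have exact 95% intervals, and a group without counts was set to 3 counts in its shallowest library. On simulated counts for CM against DMEM, 94% of genes changed by 1 and 100% of those changed by 2 on the log2 scale were recovered. Among those of the 12372 genes that were left unchanged there were 7 false calls. For DMEM + Rux against DMEM the shares recovered were 89% and 100%. Changes were placed only in genes with a mean level several times the 1 CPM of the filter. The shares therefore do not cover genes as low as Selp. Simulated samples were drawn independently, without a link between samples of the same replicate number.

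The members and lists were chosen with earlier results of these data known. Wider-list genes named are the called genes with the 2 largest rises and falls in a comparison, if the average over both groups reached 1 CPM. Markers of 9 cell types are given as sums, and motifs were searched in RefSeq promoters of GRCm38.p6. Same-numbered samples deviated together from their group means, with a correlation over 0.1 in 34 of 35 pairs (median 0.36) and in 1 of 71 pairs with different numbers (median -0.12). Deviations sum to 0 within a group, so pairs with different numbers tend to be negative where same-numbered ones are positive. The 2 kinds of pair are therefore not an independent contrast. All pairs of groups with 3 shared numbers that were compared had a correlation over 0.1 in every same-numbered pair, so the numbers were taken to pair the samples. The main fit, which gave the calls and p-values except where an alternative is named, did not use this pairing. It entered only in the replicate block. The alternatives were TMM scaling, total counts, no filter, filterByExpr, the replicate block, DESeq2 1.42.0, the compared groups alone, no threshold of size, and leaving out each sample. Figures were drawn with Python 3.11.15 and matplotlib 3.10.9.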

Additional observations from a re-analysis of the deposited data

Results flagged for a closer look

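The samples of Itga4 lay apart in opposite directions with ruxolitinib in the presence and absence of tumor medium. Its log2 fold change was 0.77 in CM + Rux against CM, where all 3 CM + Rux samples lay above all 3 CM samples, and -0.38 in DMEM + Rux against DMEM, where all 3 DMEM + Rux samples lay below both DMEM samples. The value in DMEM did not pass (adjusted p = 0.97, edgeR, 95% interval -0.76 to -0.0012), and 8.95% of all genes tested were lower without overlap there, as 9.72% were higher without overlap in CM. The log2 fold changes differed by 1.15 on the log2 scale. The difference was not tested, since the members were chosen with the comparison in CM in view.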

How the results depend on the processing

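Over the alternatives run, 174 counts of genes called stayed within 1.5 times their value and 14 did not. Of log2 fold changes of single genes, 861 kept their direction and call or, where no test is given, stayed within the replicate SD. Among tested values, 18 lost a call, 17 gained one and 24 changed sign. Another 20 values, all of Selp without a test, moved by more than its replicate SD on the log2(CPM + 0.5) scale. A gene this low has a small SD on that scale. Changes of call or sign among untested values within the SD were not counted. In CM + Rux against CM, the number called higher was 3 in place of 1 with no filter on low counts and 3 with the replicate block, and 0 to 1 when a sample was left out. Leaving out a sample gave 1 to 2 genes called lower in CM against DMEM, 3 to 6 lower with IKK-16, 0 to 1 lower in the 2 h samples against CM + Rux, and 0 to 1 lower in CM + Rux against DMEM + Rux. Such counts include Selp by its values where it passed. The cause was not tested.

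The changes of sign that were counted were all in values that were not called. In DMEM + Rux against DMEM, Itgax was 0.0045 with TMM scaling, 0.010 with total counts and 3.7e-04 with DESeq2. With total counts, Itga4 was -0.28 in CM + Rux against DMEM + Rux, and in the 2 h samples against DMEM + Rux Selplg was -0.28 and Itgam -0.069. With the replicate block, Itgax was 0.016 in the 2 h samples against CM + Rux, and among tested calls the pairing changed that of Itgal with IKK-16 and no other.

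Leaving out a sample gave ranges across 0 for Itgax in the 2 h samples against CM + Rux (-0.42 to 0.28) and against DMEM + Rux (-0.00137 to 0.69), and for Itga4 in CM + Rux against DMEM + Rux (-0.068 to 0.21). It did so in DMEM + Rux against DMEM for Icam1 (-0.80 to 0.00679), Itgax (-0.20 to 0.23), Itgb2 (-0.067 to 0.086), Selplg (-0.23 to 0.19), Vcam1 (-0.43 to 0.13) and Itgam (-0.22 to 0.017). Among values without a test, ranges crossed 0 in CM + Rux against CM for Selplg (-0.17 to 0.051), Itgax (-0.12 to 0.20) and Itgb2 (-0.11 to 0.071). That of Selp in the 2 h samples against CM + Rux did so too (-0.55 to 0.37). A group left with 1 sample was assumed to vary like the others. Depth limits Selp outside CM and Vcam1 without CM, and 2 groups of 2 samples limit all comparisons that use them.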

Other observations

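The genes whose levels were most like those of Selp, Icam1 and Vcam1 over the 16 samples are given as a description, by Pearson correlation of log2 of CPM + 0.5 among tested genes that averaged 1 CPM or more. The 16 samples share 6 groups, so the values mostly reflect group means. For Selp, compared with 11558 genes, these were Slamf1 (r = 0.977), Tbc1d9b (0.944) and Jak3 (0.931). Slamf1, an adhesion and signaling receptor of the SLAM family, averaged 10.5 CPM in CM, 1.01 CPM in CM + Rux, 0.401 CPM in CM + Rux 2 h, 0.104 CPM with IKK-16 and 0.0815 CPM in DMEM. Jak3, a kinase of cytokine receptors with the common gamma chain, averaged 63.2 CPM in CM and 26.2 to 38.7 CPM in the other groups.

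For Icam1, compared with 11557 genes, they were Nup54 (0.973), Phldb1 (0.971) and Rela (0.971). Rela, which encodes the p65 subunit of NF-κB, averaged 161 CPM in DMEM, 199 CPM in CM, 231 CPM in CM + Rux, 185 CPM with IKK-16 and 302.5 CPM at 2 h. Phldb1 averaged 36.6 CPM in DMEM, 84.0 CPM in CM and 485 CPM at 2 h. For Vcam1 they were Hivep3 (0.983), Cldnd1 (0.982) and Rab5b (0.981), and Hivep3 averaged 47.5 CPM in DMEM, 171 CPM in CM and 305 CPM at 2 h.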
